A study of Mus musculus with 88 samples.

Results

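Whole-blood gene expression in SNF1 mice with spontaneous lupus-like disease was compared with that in untreated SNF1 mice. Of the 88 arrays in the series, 8 titled as untreated at week 36 came from mice that the study describes as having spontaneous disease. They were set against all 40 arrays of untreated mice of weeks 2, 4, 8, 12 and 14, with 8 arrays per week. All of these mice were female first-generation offspring of an SWR by NZB cross, and none had received pristane, the oil given to the other 40 mice of the series. The mice with spontaneous disease were chosen for their proteinuria, per the study's methods, whereas the untreated mice were age-matched to the pristane-treated ones. Weeks 2 to 14 count from the pristane injection of those counterparts, but week 36 is an age, so the week numbers do not lie on one time scale. By the ages in the study's methods, all untreated mice of weeks 2 to 14 were younger than the mice with spontaneous disease. The labels give no group of untreated mice of that age without disease, so age and disease cannot be told apart in any value below.

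Systemic lupus erythematosus is an autoimmune disease in which antibodies against nuclear components form immune complexes that lodge in the kidney, and the SNF1 strain develops it with age. Blood carries several cell types that take part. Monocytes bear Fc receptors that bind immune complexes, neutrophils release granule proteins and nuclear material, B cells depend on survival factors such as BAFF, and type I interferon switches on a large set of antiviral genes in most blood cells. RNA of whole blood mixes all of these, together with reticulocytes and platelets. In such bulk samples, fewer cells of a type and less RNA per cell cannot be told apart.

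Signals were log2 values summarised per probe set, and a change of 1 on this scale is 2-fold. Each gene was read from 1 probe set, and 17097 genes were tested. The labels state 8 numbered samples per group but not how the animals were housed, collected or plated, so p values measure the spread between these samples. The number of arrays limits the precision. The expected cell types were present in the spontaneous arrays, where the mean signal was 12.82 for Alas2 (haem synthesis of red cell precursors), 11.75 for S100a8 (neutrophils), 10.35 for Cd79a (B cells), 11.89 for Pf4 (platelets) and 8.86 for Cd3e (T cells). The score of a list of genes of other tissues, the mean log2 signal of its members on an array, averaged 4.10 ± 0.14 in spontaneous disease, close to the median of all deposited values, 3.89. Array distributions were not equal. Their interquartile range had a median of 3.48 (3.02 to 3.70) in spontaneous disease and of 3.22 (2.85 to 3.78) in untreated mice. By untreated week the median was 3.14, 3.21, 3.22, 3.26 and 3.57 in order, so only week 14 lay above spontaneous disease. The untreated weeks thus differed in array distribution as well as in time. The interquartile range followed the first principal component of the 48 arrays, which held 28.4% of the variance (absolute r = 0.98, a description over arrays). Its part in the results was tested only through the alternatives in the closing section.

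The main comparison set the mean of the spontaneous group against the mean of the 5 untreated week means. With a threshold of 0.05 on the adjusted p and of 2-fold on the change, 66 of 17097 genes were higher (0.386%) and 0 were lower (0%). Without a fold threshold, 213 genes (1.25%) were higher and 28 (0.164%) lower. Where a single gene is said below to keep or lose its call, this refers to the adjusted p alone. At an unadjusted p under 0.05, 1440 genes were higher and 1387 lower, with 0 of the lower ones past 2-fold. The median change over all genes was -0.035. This contrast takes the 5 week means as fixed. With the 40 untreated arrays as 1 group without a week term, 7 genes were higher by more than 2-fold, and of the 52 genes named below that passed an adjusted p of 0.05, 4 still did (Lpl, Chil3, Ccr2 and Itgax). With the week as a random block in limma, 0 genes passed in either direction, with 711 higher and 329 lower at an unadjusted p under 0.05. No gene had its 8 spontaneous arrays all above or all below the 40 untreated arrays (0% each), and the 66 genes had at most 5 spontaneous arrays above every untreated array.

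The outcome depended on which untreated mice served as the control. Against week 2 alone, 354 genes (2.07%) were higher and 20 (0.117%) lower by more than 2-fold, and against week 4 alone 282 (1.65%) were higher and 16 (0.0936%) lower. Against week 12, 9 genes (0.0526%) were higher and 0 lower. Against week 8 and against week 14, 0 genes passed in either direction, with or without the fold threshold, although 1188 genes were higher and 1507 lower than at week 8 at an unadjusted p under 0.05, and 357 higher and 237 lower than at week 14. Without the fold threshold, 1038 genes (6.07%) were higher and 988 (5.78%) lower than at week 2, 603 (3.53%) and 272 (1.59%) than at week 4, and 11 (0.0643%) and 1 (0.00585%) than at week 12. Of the 66 genes, 65 passed an adjusted p of 0.05 against week 2, 61 against week 4, 8 against week 12 and 0 against weeks 8 and 14. These comparisons share the spontaneous arrays. The untreated mice differed among themselves as well. An F test over their 5 weeks called 2017 genes (11.8%), and 50 of the 66 were among them. The spontaneous mean lay above all 5 week means for 52 of the 66 genes, against 2148 of all genes (12.6%), a share that the choice of the 66 favours.

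**Figure D1:**
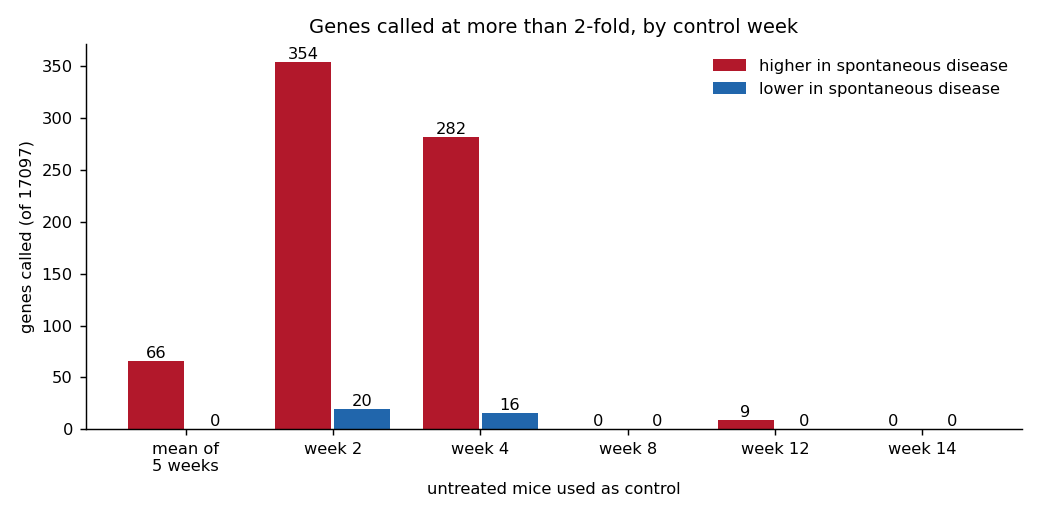
Number of genes (of 17097) past both thresholds (adjusted p 0.05, 2-fold), higher (red) or lower (blue) in spontaneous disease, for the mean of the 5 untreated weeks and for each untreated week as the only control. The number higher is 66 against the mean of the weeks, 354 and 282 against weeks 2 and 4, 9 against week 12 and 0 against weeks 8 and 14.

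The 39 gene lists were chosen with earlier results of these data known. Among them, the monocyte and macrophage list had the most members past the threshold. Of its 23 tested genes, 11 were higher at an adjusted p under 0.05, beside 1.25% of all genes, and 0 were lower. The median change of the 23 was 0.78, beside -0.035 over all genes. Against single untreated weeks it was 1.35, 1.39, 0.40, 0.68 and 0.083 for weeks 2, 4, 8, 12 and 14, and so smallest against week 14. Lpl, the lipase that frees fatty acids from circulating triglycerides and is made by macrophages among other cells, stood on the lipid and lysosome list and had the largest change among the called genes. Its signal was 6.72, 7.46 and 8.51 at the lowest, median and highest of the spontaneous arrays, against 2.55, 4.68 and 8.74 in the 40 untreated arrays. The ranges overlapped, but all 8 spontaneous arrays lay above the untreated median. The change was 5.66-fold (95% confidence interval 3.27 to 9.81), with an adjusted p of 0.00035 in limma. The week means of untreated mice were 4.20, 4.00, 5.56, 4.71 and 6.67 at weeks 2, 4, 8, 12 and 14, so the untreated mice of week 14 came nearest to the spontaneous mean of 7.53. A second probe set of Lpl changed by 0.53 and did not pass the test.

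Fcgr4 encodes an activating Fc receptor that binds IgG2 immune complexes in mice and marks patrolling monocytes. It measured 7.27, 8.81 and 9.89 at the lowest, median and highest spontaneous arrays and 4.60, 6.92 and 10.05 in untreated mice. No spontaneous array exceeded the highest untreated array, which belonged to week 8. The log2 change was 1.61 (95% confidence interval 1.07 to 2.16, adjusted p = 0.000911). Ccr2, the chemokine receptor that lets inflammatory monocytes leave the bone marrow, measured 7.90, 8.61 and 9.07 in spontaneous disease, against 5.98, 7.48 and 8.56 in untreated mice. 5 of the 8 spontaneous arrays were above every untreated array. Its change of 1.09 (adjusted p = 0.00103) also passed against week 12 alone. Of 3 other Ccr2 probe sets, at 0.14 to 0.99, 1 passed against all weeks. Fn1, fibronectin, which macrophages deposit in matrix, measured 7.78, 8.17 and 8.89 in spontaneous disease and 5.58, 7.29 and 8.16 in untreated mice, a change of 1.01 (adjusted p = 0.00238), and 4 spontaneous arrays above all untreated ones.

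Several other myeloid genes had untreated week 14 values as high as those of spontaneous disease. Ms4a6d, a membrane protein of macrophages, averaged 8.31 ± 0.87 in spontaneous disease and 6.59 ± 1.64 over the untreated arrays (SD, n = 8 and 40), a change of 1.71 (adjusted p = 0.00831, and 0.0609 without array 5). Of 2 other Ms4a6d probe sets, at -0.20 and 1.43, 1 passed. At week 14 untreated mice averaged 8.56 for Ms4a6d, above the spontaneous mean. The same order held for Treml4, a receptor of patrolling monocytes in mice, at 9.06 in spontaneous disease and 9.06 in untreated mice of week 14, with a change of 1.24 against all weeks (adjusted p = 0.00879). Cybb, the catalytic subunit of the phagocyte NADPH oxidase, averaged 8.46 in spontaneous disease, against 8.67 at untreated week 14 and a change of 1.05 against all weeks (adjusted p = 0.00176). Of 2 other Cybb probe sets, at 0.34 and 0.89, 1 passed. Smpdl3b, a lipid-modifying enzyme of the macrophage surface, ranged from 5.18 to 8.90 in spontaneous disease and from 4.01 to 9.48 in untreated mice, with a change of 1.51 (adjusted p = 0.0407, and above 0.05, at up to 0.182, without any 1 of 7 arrays). Spic, a transcription factor known from macrophages that recycle iron, differed in that its spontaneous mean of 6.71 was above all untreated week means, 4.54, 3.45, 5.04, 4.80 and 6.28 in order of week. Its change was 1.89 (adjusted p = 0.00102), and a second probe set rose by 1.08. Tcf7l2, a transcription factor of the Wnt pathway, rose by 1.49 (adjusted p = 0.00382), while its other 3 probe sets, at 0.32 to 0.69, did not pass. Slc11a1, a metal transporter of the phagosome, had a narrow range in spontaneous disease, 8.21, 8.34 and 8.46 at the lowest, median and highest spontaneous arrays, against 5.62, 7.38 and 9.18 in untreated mice (change 1.01, adjusted p = 0.00653). Against untreated week 14 alone, the changes of Tcf7l2 and Slc11a1 were 0.071 and 0.40, and neither passed.

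**Figure D2:**
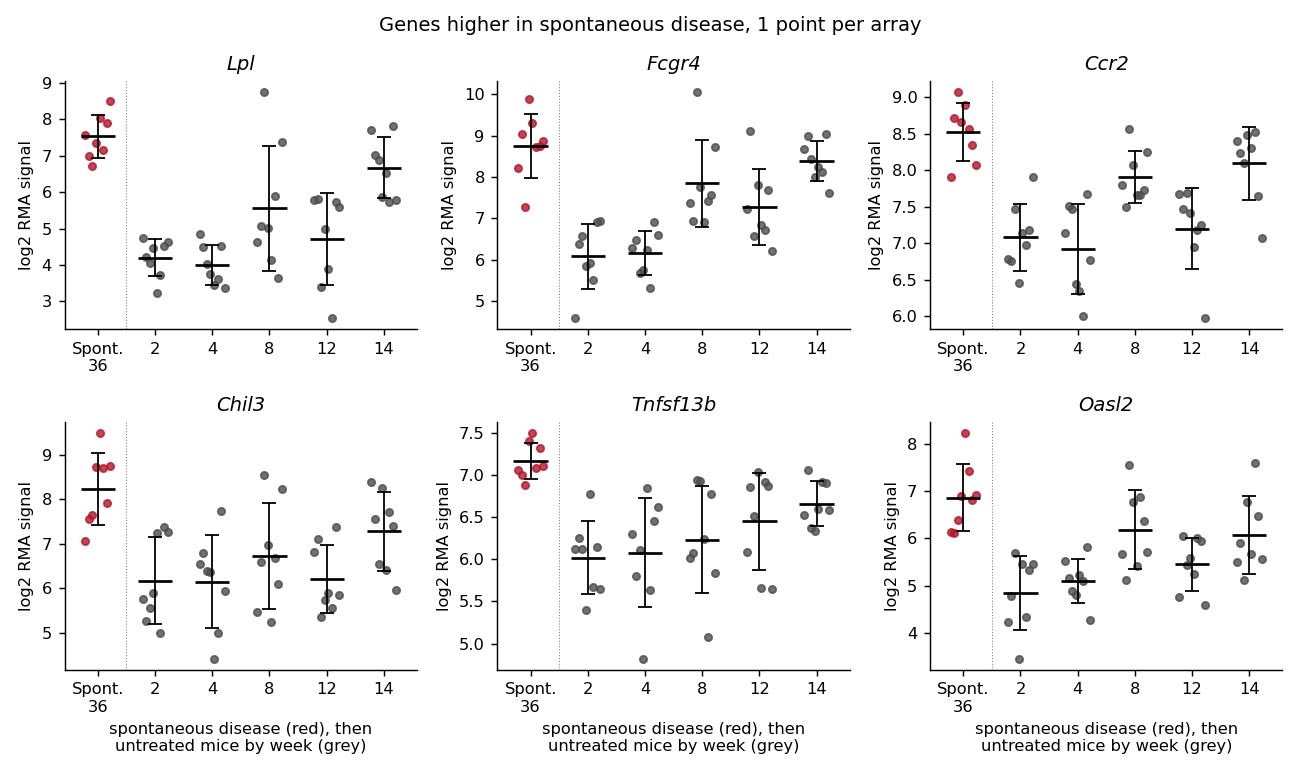
Log2 RMA signal of 6 genes on each array, spontaneous disease at the left in red and untreated mice of weeks 2, 4, 8, 12 and 14 in grey, with the mean and SD in black (n = 8 per group). For Lpl and Fcgr4 the untreated week means lie lowest at weeks 2 and 4 and highest at week 14 (8.39 for Fcgr4), and for Ccr2 and Tnfsf13b 5 spontaneous points each lie above all untreated points.

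The score of the monocyte and macrophage list was also read on each array. Of its 23 members, 11 were themselves higher at an adjusted p under 0.05, so the score is not separate from those results. The monocyte and macrophage score averaged 7.24 ± 0.26 in spontaneous disease (SD, n = 8) and 6.15, 6.15, 6.84, 6.61 and 7.16 in untreated mice at weeks 2, 4, 8, 12 and 14. Its range was 6.70 to 7.57 over the 8 spontaneous arrays and 5.69 to 7.66 over the 40 untreated ones, so that the groups overlapped. With this score as a covariate, chosen after the data were seen and built in part from genes that carry the calls, 0 genes were called higher in place of 66. Without untreated weeks 2 and 4, the weeks of lowest score, 0 genes were called as well, at a median change of 0.39 for the monocyte list. Whether the difference lies in cell number, age or disease was not tested.

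The promoters of the called genes are shown where they hold motifs of factors known from myeloid cells and from interferon responses. A 250-base window before the annotated start (RefSeq, build GRCm38.p6) was found for 52 of the 66 genes. The core of the interferon-stimulated response element, GAAANNGAA on either strand, was in a window of 9 of these 52 genes (17.31%), against 2211 of 27025 genes (8.18%) in the reference. The PU.1 box, GAGGAAGT on either strand, was in 4 of the 52 (7.69%), against 755 of 27025 (2.79%). No test was made, and a match is a description of letters, not a binding site. Fcgr4 and the uncharacterised gene B430306N03Rik held both motifs, which do not overlap, and in Fcgr4 they begin 73 and 24 bases before the start. Cybb held 3 response elements and the guanylate-binding protein gene Gbp2b held 1. Their windows follow, 5′ to 3′ on the strand of the gene, with the matches in capitals.
Fcgr4, chr1:171018676-171018925, plus strand: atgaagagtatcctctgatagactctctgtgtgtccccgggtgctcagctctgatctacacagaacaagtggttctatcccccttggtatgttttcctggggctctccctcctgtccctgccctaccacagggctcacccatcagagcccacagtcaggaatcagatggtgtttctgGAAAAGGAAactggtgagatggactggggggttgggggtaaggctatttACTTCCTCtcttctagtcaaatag
Cybb, chrX:9469325-9469574, minus strand: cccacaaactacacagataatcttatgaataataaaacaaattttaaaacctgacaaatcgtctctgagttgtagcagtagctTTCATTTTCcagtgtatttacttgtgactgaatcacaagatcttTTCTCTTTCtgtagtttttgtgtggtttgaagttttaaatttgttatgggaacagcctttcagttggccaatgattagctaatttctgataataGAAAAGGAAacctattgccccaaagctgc
Gbp2b, chr3:142594597-142594846, plus strand: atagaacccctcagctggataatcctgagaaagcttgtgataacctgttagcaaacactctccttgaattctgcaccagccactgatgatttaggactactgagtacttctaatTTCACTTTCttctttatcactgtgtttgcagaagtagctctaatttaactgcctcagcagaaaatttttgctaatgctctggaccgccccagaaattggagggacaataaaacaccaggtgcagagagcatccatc

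Interferon-induced genes were higher by smaller amounts. Of 24 tested members of the interferon response list, 5 were higher at an adjusted p under 0.05 and 0 lower, beside 1.25% and 0.164% of all genes. The median change was 0.51, and 22 members had values above 0, beside 7412 of all 17097 genes. Against single untreated weeks the median was 0.70, 0.76, 0.22, 0.58 and 0.34 in order of week. Oasl2, of the family of oligoadenylate synthetases that sense double-stranded RNA, measured 6.11, 6.86 and 8.24 at the lowest, median and highest spontaneous arrays and 3.45, 5.48 and 7.61 in untreated mice. All 8 were above the untreated median and 1 above every untreated array. Its change was 1.34 (0.76 to 1.91, adjusted p = 0.00691). Rtp4, an antiviral effector, changed by 1.12 (adjusted p = 0.0104), with a second probe set at 0.14, and Oas1g, which makes oligoadenylates, by 0.85 (adjusted p = 0.0282). Both lost the call without spontaneous array 5, with adjusted p of 0.0875 and 0.123, and so did Oasl2, at 0.0716. Oas1g also lost it without array 1, 4, 6 or 7. Without array 5, 1 list member was higher at an adjusted p under 0.05 in place of 5, and the list's median change was 0.43.

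Not all members of the p200 family of DNA-binding interferon-induced proteins passed. Ifi203 did not pass, at 0.31 (adjusted p = 0.507), whereas Ifi202b and Ifi204 were higher and kept their calls whichever spontaneous array was left out. Ifi202b, a candidate gene of a lupus susceptibility interval of the NZB strain, measured 6.71, 7.42 and 8.23 in spontaneous disease, against 4.36, 6.20 and 8.36 in untreated mice, a change of 1.24 (adjusted p = 0.00266, and 0.0263 without array 5). Ifi204, a sensor of cytosolic DNA, measured 5.20, 5.86 and 6.57 against 3.51, 4.85 and 6.03, a change of 0.90 (adjusted p = 0.00392, and 0.0434 without array 5). The guanylate-binding proteins Gbp3 and Gbp2b, which attack membranes around intracellular microbes, rose by 1.13 and 1.06 (adjusted p = 0.0109 and 0.00392), each with its highest value on array 5, and without it their adjusted p were 0.129 and 0.0758. Genes that did not pass included Ifih1, the RNA sensor MDA5, at 0.63 (adjusted p = 0.0711), the chemokine Cxcl10 at 0.64 (adjusted p = 0.0786), and Sting1, the adaptor of cytosolic DNA sensing, at 0.23 (adjusted p = 0.411). The interferon score averaged 7.11 ± 0.40 in spontaneous disease and 6.34, 6.36, 6.91, 6.48 and 6.78 in the untreated weeks in order. It ran from 6.42 on spontaneous array 3 to 7.78 on array 5, and the highest untreated array was at 7.75.

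Neutrophil genes were higher as well, by smaller amounts. All 18 tested members of the mature neutrophil list had values above 0, beside 7412 of all 17097 genes. Their median change was 0.49, and 5 of them were higher at an adjusted p under 0.05, beside 1.25% of all genes. S100a8 and S100a9 encode the subunits of calprotectin, the most plentiful protein of the neutrophil cytosol. S100a8 measured 11.36, 11.76 and 12.31 in spontaneous disease and 10.38, 11.31 and 12.03 in untreated mice, a change of 0.46 (adjusted p = 0.0157). S100a9 measured 12.32, 12.54 and 12.92 and 11.57, 12.26 and 12.72, a change of 0.35 (adjusted p = 0.0196), but its value was -0.0070 when arrays were scaled to 1 interquartile range. All 8 spontaneous arrays lay above the untreated median for both genes. Without spontaneous array 3 their adjusted p reached 0.0895 and 0.09, and without array 5 both lost the call too. Fpr2, a receptor for formylated peptides that guides neutrophils, rose by 1.20 (adjusted p = 0.00379), with an untreated mean of 10.04 at week 14 against 9.93 in spontaneous disease.

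Other neutrophil genes were also among those called. For Stfa2l1, a stefin that inhibits cysteine proteases, the untreated week means were 6.40, 6.49, 6.75, 6.75 and 6.84, and the F test over weeks gave an adjusted p of 0.802, while the spontaneous mean was 7.82. Its change was 1.17 (adjusted p = 0.0159, and up to 0.0995 without array 3 or 5). Cd177, a surface protein of neutrophils, measured 6.46, 6.74 and 7.08 in spontaneous disease and 4.09, 5.87 and 6.91 in untreated mice, a change of 1.04 (adjusted p = 0.0192, and 0.0776 without array 5). 3 spontaneous arrays lay above all untreated arrays. Ceacam10, a member of the carcinoembryonic antigen family, changed by 1.12 (adjusted p = 0.0356) but lost its call when any of 6 spontaneous arrays was left out, with an adjusted p of up to 0.125. A second Ceacam10 probe set, at 0.82, did not pass. Among granule genes of immature neutrophils, 1 of 14 was higher at an adjusted p under 0.05, beside 1.25% of all genes. This was Chil3, a secreted chitinase-like protein of neutrophil precursors and macrophages in mice, at 7.07, 8.30 and 9.48 in spontaneous disease and 4.43, 6.49 and 8.55 in untreated mice, 3.3-fold (95% confidence interval 2.07 to 5.26) higher (adjusted p = 0.00354), with 4 spontaneous arrays above every untreated one. Its untreated week means were 6.18, 6.15, 6.73, 6.21 and 7.28, highest at week 14. Its near-identical neighbour in the family, Chil4, rose by 1.27 (adjusted p = 0.0157, and up to 0.0984 without array 5, 6 or 8), with a second probe set at 0.014. Lactoferrin, Ltf, at 0.90, and haptoglobin, Hp, at 0.60, did not pass (adjusted p = 0.19 and 0.174).

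The called genes Csta1, Clca4c-ps, Asprv1 and Cldn23 had a wide spread among the mice with spontaneous disease and are given together for that reason, a choice made after their values were seen. Other called genes, such as Acod1, spread widely as well. Csta1, another stefin, measured 3.85, 2.30, 3.59, 2.83, 9.08, 7.27, 6.82 and 4.55 on spontaneous arrays 1 to 8, against 1.90, 3.20 and 6.14 at the lowest, median and highest of the untreated arrays. Arrays 5, 6 and 7 lay above all untreated arrays and the other 5 within their range. Its change of 1.61 (0.87 to 2.35, adjusted p = 0.0125) was 1.03 without array 5, with an adjusted p of 0.207, and the call was also lost without array 6 or 7. Clca4c-ps, a pseudogene of the chloride channel accessory family, had the same 3 arrays above all untreated ones, at 6.47, 5.81 and 4.30 against an untreated maximum of 4.06 (change 1.11, adjusted p = 0.0043, and up to 0.1 without array 5 or 6). Asprv1, an aspartic protease known from skin and from neutrophils in mice, was highest on array 5 at 9.57, followed by arrays 6 and 7 at 7.83 and 7.37, and only array 5 exceeded the untreated maximum of 7.98 (change 1.05, adjusted p = 0.0406, and above 0.05, at up to 0.284, without any 1 of 4 arrays). Cldn23, a claudin of tight junctions, measured 6.40 on array 5, 4.04 on array 6, 3.48 on array 4 and 3.29 on array 8, while the untreated arrays stayed between 1.79 and 2.76 (change 1.05, adjusted p = 0.00373, and 0.0795 without array 5). For these 4 genes the F test over untreated weeks gave adjusted p between 0.29 and 0.97.

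**Figure D3:**
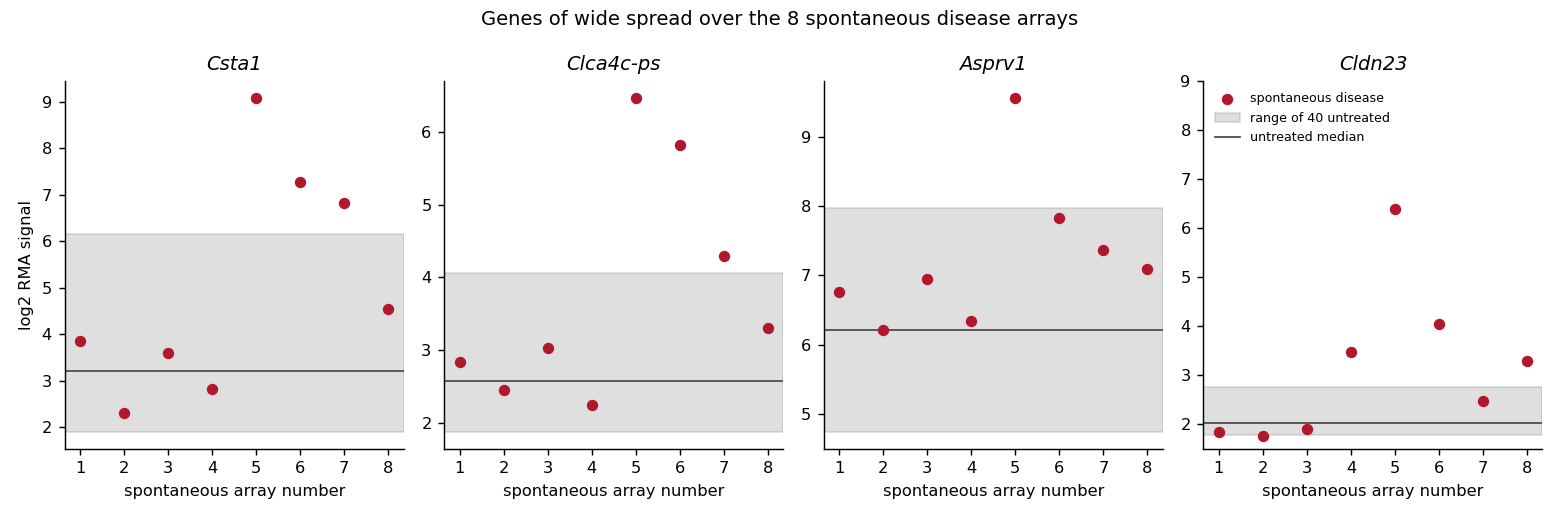
Log2 RMA signal of Csta1, Clca4c-ps, Asprv1 and Cldn23 on each of the 8 spontaneous disease arrays (red), with the range (grey band) and median (line) of the 40 untreated arrays. Array 5 has the highest value of all 4 genes, and arrays 1 to 3 stay within the untreated range for Csta1, Clca4c-ps and Asprv1.

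Some single genes of innate sensing were also higher, of which Ly96 and Naip2 were picked after their values were seen. On the list of nucleic acid sensors 1 of 21 tested genes, Ifi204, was higher and 0 were lower, beside 1.25% and 0.164% of all genes. The median change of the list was 0.34. Ly96, the co-receptor MD-2 that lets TLR4 bind endotoxin, measured 5.73, 6.13 and 6.83 in spontaneous disease and 2.53, 4.78 and 6.76 in untreated mice, a change of 1.34 (adjusted p = 0.0101, and 0.0609 without array 5). Naip5 and Naip2, inflammasome receptors for bacterial flagellin and secretion-system proteins in mice, rose by 1.49 and 1.02 (adjusted p = 0.00392 and 0.0149), and Naip2 lost its call without array 5 (0.0656). Casp1, the protease that inflammasomes activate to release IL-1β, measured 8.48, 8.86 and 9.39 in spontaneous disease, against 6.12, 7.95 and 9.43 in untreated mice. All 8 spontaneous arrays lay above the untreated median and none above its maximum, and the change was 0.999 (adjusted p = 0.00392). Acod1, which makes itaconate in activated macrophages, changed by 1.54 (adjusted p = 0.026) with a wide spread of 5.15 to 8.55 over the spontaneous arrays, and its adjusted p was up to 0.174 without array 2, 5 or 6. Of 26 tested genes on the inflammatory mediator list, 3 were higher and 0 lower, beside 1.25% and 0.164% of all genes.

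Some lipid-handling genes beside Lpl were also higher. Of 24 tested genes on the lipid and lysosome list, 4 were higher and 0 lower, beside 1.25% and 0.164% of all genes. The median change of the list was 0.18. Plin2, the coat protein of lipid droplets, measured 7.23, 7.65 and 8.10 in spontaneous disease and 5.57, 6.55 and 8.32 in untreated mice, a change of 0.94 (adjusted p = 0.00392). Grn, the lysosomal protein progranulin, rose by 0.66 (adjusted p = 0.00373), and its second probe set by 0.82. Pparg, a lipid-sensing transcription factor of macrophages and fat cells, was at the edge of the threshold with a change of 0.91 (adjusted p = 0.0488), which it missed when any of 6 spontaneous arrays was left out.

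Ligands of the BAFF system rose, while markers of B and plasma cells did not pass the test. Tnfsf13b, which encodes BAFF, the survival factor of mature B cells made by myeloid cells, measured 6.88, 7.09 and 7.49 at the lowest, median and highest spontaneous arrays, against 4.82, 6.32 and 7.06 in untreated mice. 5 of 8 spontaneous arrays lay above every untreated array, and the remaining 3 lay above the untreated median. The change was 0.88 (0.50 to 1.26, adjusted p = 0.00746, and at most 0.0441 with any spontaneous array left out). The untreated week means, 6.02, 6.08, 6.23, 6.45 and 6.66 in order, did not pass the F test (adjusted p = 0.202). Its 2 other probe sets changed by -0.082 and -0.011 and did not pass. Tnfsf13, which encodes the related ligand APRIL, rose by 0.90 (adjusted p = 0.0329, and above 0.05, at up to 0.164, without any 1 of 5 arrays). Beside 1.25% of all genes, 3 of 16 genes were higher on the list of age-associated B cells and germinal centres. These were Itgax, the integrin CD11c shared with dendritic cells and patrolling monocytes, at 1.01 (adjusted p = 0.02, and up to 0.0703 without array 4 or 5), Nt5e, the ectoenzyme CD73, at 0.68 (adjusted p = 0.0306), and Bcl6, the transcription factor of germinal centre cells, which neutrophils and monocytes also express, at 0.55 (adjusted p = 0.0461). The other 2 probe sets of Nt5e, at -0.22 and -0.046, and 1 of Bcl6, at 0.11, did not pass. The adjusted p of Nt5e and of Bcl6 rose above 0.05 when any of 6 spontaneous arrays was left out, to at most 0.139 and 0.161. Of 18 B cell markers and 13 plasma cell markers, 0 passed in either direction, at median changes of 0.047 and 0.15. Over all genes 1.25% were higher and 0.164% lower, so 0 in lists of this size is near those shares. Fcer1g, the signalling chain of Fc receptors, rose by 0.51 (adjusted p = 0.0377, and above 0.05, at up to 0.178, without any 1 of 7 arrays).

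Without a fold threshold 28 genes were lower, 0 of them by more than 2-fold. Ccr9, the chemokine receptor that directs lymphocytes and plasmacytoid dendritic cells to the gut, measured 3.52, 4.22 and 6.15 in spontaneous disease and 3.85, 5.31 and 6.31 in untreated mice. The ranges overlapped, and 1 spontaneous array lay above the untreated median. Ccr9 fell by 0.87 (adjusted p = 0.0267, and above 0.05, at up to 0.147, without any 1 of 5 arrays), whereas its 3 other probe sets, at -0.30 to -0.21, did not pass. Cd209d, a C-type lectin related to DC-SIGN, measured 4.50, 4.78 and 5.28 against 4.39, 5.58 and 6.68, with all 8 spontaneous arrays below the untreated median, and fell by 0.73 (adjusted p = 0.0208). It lost its call when array 1, 2, 4 or 7 was left out, at an adjusted p of up to 0.063. Alox15, a lipoxygenase of eosinophils and macrophages, fell by 0.85 against all weeks (adjusted p = 0.0312, and above 0.05, at up to 0.122, without any 1 of 5 arrays), but untreated week 14 was lower still, at 4.21 against 4.30 in spontaneous disease.

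Kif20b, Smc4 and Knl1, among the 28 genes lower without a fold threshold, act in mitosis and are given together. Mitosis genes were not counted over all genes, so no fall of such genes as a set is read from them. Kif20b, a kinesin of cell division, measured 4.19, 4.28 and 5.69 in spontaneous disease and 3.78, 5.40 and 6.41 in untreated mice, and fell by 0.83 (adjusted p = 0.0115, and 0.059 without array 5). Smc4, a subunit of condensin, fell by 0.55 (adjusted p = 0.0123, and 0.054 without array 5), and Knl1, a kinetochore scaffold, by 0.61 (adjusted p = 0.0358, and above 0.05, at up to 0.161, without any 1 of 6 arrays). Other probe sets of all 3 genes did not pass, at -0.29 for Kif20b, -0.26 and -0.058 for Smc4 and 0.037 for Knl1. None of these 3 stood on the cell cycle list. Of its 37 tested genes 0 passed in either direction, at a median of -0.13, beside 1.25% higher and 0.164% lower of all genes. Zfp644, a zinc finger protein, fell by 0.74 (adjusted p = 0.0212), with its 5 other probe sets between -0.14 and 0.20, none of which passed, and its adjusted p was 0.0754 without array 6. Il17rc, a subunit of the receptor for IL-17, fell by 0.40 (adjusted p = 0.0196, and up to 0.0572 without array 3 or 5) and was the 1 gene lower than in untreated mice of week 12 alone. A second Il17rc probe set, at -0.18, did not pass.

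T cell markers had mostly negative values, none of which passed the test. Of 18 tested genes, 17 were below 0, at a median change of -0.35, while 7412 of all 17097 genes were above 0. The mean of 12 of the 18 was below all 5 untreated week means, beside 2506 of all genes (14.7%). The 1 member of the T cell list above 0 was Tcf4, at 0.25, a transcription factor of plasmacytoid dendritic cells. Tcf4 also stands on the dendritic cell list. Lef1 and Bcl11b, transcription factors of T cells, were at -0.53 and -0.46 (adjusted p = 0.147 and 0.244), the adaptor Lat at -0.42 (0.136) and the co-receptor chain Cd8b1 at -0.59 (0.201). The T cell score spread widely among the mice with spontaneous disease, from 6.41 on array 8 and 6.42 on array 1 to 7.97 on array 3, against 6.29 to 7.83 over the untreated arrays. Array 3 also had the lowest monocyte score, 6.70, and the lowest erythroid score, 7.47. Red cell genes as a list were at a median change of -0.24, with 0 of 30 passing, and their score averaged 8.50 ± 0.51 in spontaneous disease and 8.91, 9.02, 8.85, 8.86 and 8.11 in the untreated weeks in order. Platelet markers, at a median of -0.014, and ribosomal protein genes, at 0.041, had no member past the threshold among 15 and 66 tested. Over all genes 1.25% were higher and 0.164% lower, so the counts of 0 in these lists, T cells included, are near those shares.

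**Figure D4:**
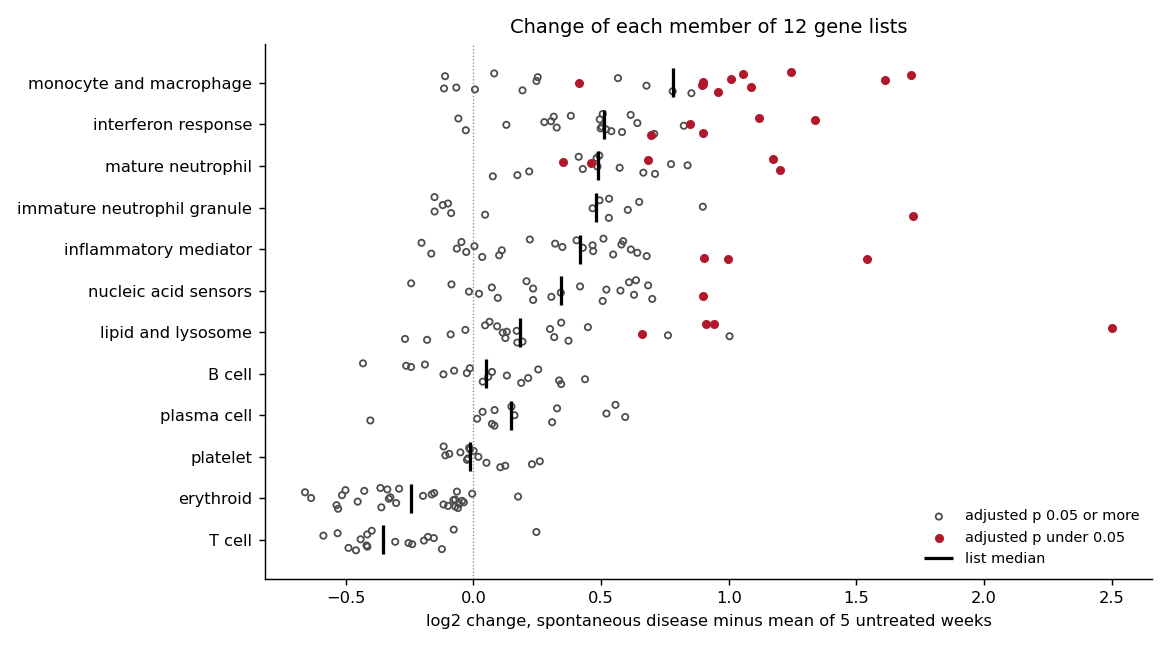
Log2 change of each tested member of 12 gene lists, spontaneous disease minus the mean of the 5 untreated week means, with members at an adjusted p under 0.05 in red, the others open, and the list median as a black bar. The median is 0.78 for monocyte and macrophage genes, 0.51 for interferon response genes and -0.35 for T cell genes.

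Genes that the study also followed in kidney were read in blood. Of 10 tested, S100a8 and S100a9 were higher, and 0 were lower, beside 1.25% and 0.164% of all genes. Saa3, an acute-phase protein, was at 0.59 (adjusted p = 0.393). The list scores of the single arrays show how far the groups overlap, and the mature neutrophil score averaged 8.11 ± 0.25 in spontaneous disease and 7.32, 7.40, 7.75, 7.50 and 7.73 in the untreated weeks in order.

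**Figure D5:**
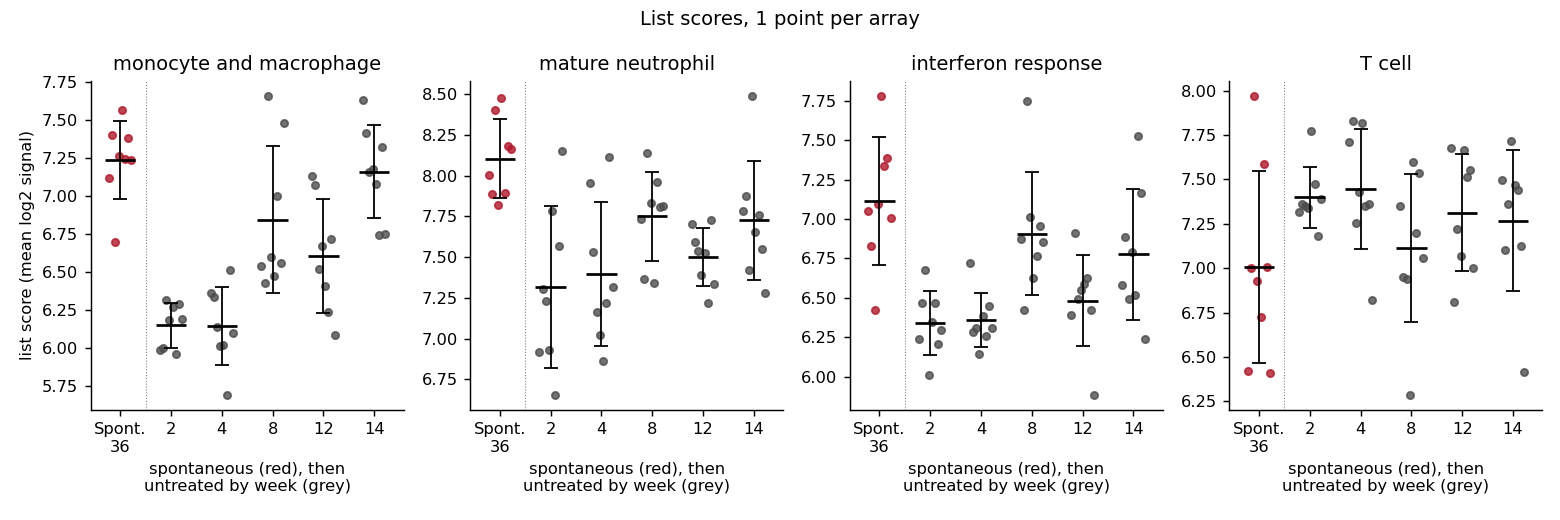
Scores of 4 gene lists (mean log2 signal of the members) on each array, spontaneous disease at the left in red and untreated mice by week in grey, with the mean and SD in black (n = 8 per group). The monocyte and macrophage score of spontaneous disease averages 7.24 and that of untreated week 14 averages 7.16, while the interferon score averages 7.11 and 6.78.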

How the data were processed

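Whole-blood RNA of 88 mice was hybridised to 1 array each (Affymetrix HT MG-430 PM), and the authors deposited log2 signals made with the robust multi-array average (RMA), which corrects background, equalises arrays and combines the probes of a set. The submitters' processing notes also name Partek. The file holds 45141 probe sets, of which 45037 were tested after removal of 104 controls. The probe table gave 28898 of them 1 gene, 551 several and did not list 15588, and 28689 matched the mouse gene reference by Entrez ID. Each of 17097 genes was read from 1 single-gene probe set, that of highest mean signal over all arrays. No depth applies to arrays.

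The 11 group means over 88 arrays were fitted with limma 3.58.1 in R 4.3.3 (77 residual and 5.81 prior degrees of freedom), and the pristane groups entered only the estimate of the spread. P values were adjusted over the 45037 probe sets by Benjamini-Hochberg, intervals are 95%, and calls needed a change past 2-fold as well as an adjusted p under 0.05, as in the methods. The pipeline was tested on simulated data. The 39 gene lists hold 829 tested members, some shared between lists (Fcgr4, Itgax, Ifi204, S100a8, S100a9). Members and lists were chosen with earlier results of these data known. Candidates for naming were the 12 largest rises and falls and the 10 widest gaps between arrays in each direction. The 4 members of largest moderated t from each list and the kidney genes were candidates too. Clones and many other candidates were left out for length, including some that passed the test, such as Klf4 and Nr4a1. 1 gene of the kidney list was not analysed here. Treml4, Slc11a1, Cybb, Ly96, Naip2, Ifi202b, Ifi203, Gbp3, Gbp2b, Chil4, Clca4c-ps, Asprv1, Cldn23 and Ceacam10 were named after their values were seen. Probe sets of near-identical family members (stefins, chitinase-like, Naip, Gbp and p200 genes) may bind each other's transcripts. Promoters were taken from RefSeq (GRCm38.p6).

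Alternatives covered the arrays in the fit, the untreated weeks used, each spontaneous array left out, scaling, covariates, probe-set choice and the variance model. The replicate numbers of the titles were checked for pairing, with the result given in the closing section. Control without weeks 2 and 4 and the monocyte covariate were added after the data were seen.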

Additional observations from a re-analysis of the deposited data

Results flagged for a closer look

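Within the 8 spontaneous disease arrays, the values of 64 named genes and 39 list scores were searched for an array far from the rest, with the gap to its nearest neighbour above 0.526 of the group's range (Dixon's 95% limit). This held for 6 of 103, about the share of 1 in 20 that chance gives. Array 5 was highest for Cxcl10, an interferon-induced chemokine, at 7.07 with the next array at 5.13, and for the inflammatory mediator score, at 5.82 with the next at 5.35. Kif20b was highest on array 2 at 5.69, where the next array had 4.89. Il17rc was lowest on array 3 at 4.47, where the next had 4.66. Ifi203, of the p200 family, was lowest on array 8 at 5.45, where the next had 6.58, and the platelet score was lowest on array 6 at 9.07, where the next had 9.64.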

How the results depend on the processing

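Counts in this section are genes higher and lower by more than 2-fold, then higher and lower without a fold threshold, which were 66, 0, 213 and 28. Against single untreated weeks they were 354, 20, 1038 and 988 (week 2), 282, 16, 603 and 272 (week 4), 0, 0, 0 and 0 (weeks 8 and 14) and 9, 0, 11 and 1 (week 12). Leaving 1 week out of the control gave 13, 0, 36 and 1 (week 2), 16, 0, 47 and 0 (week 4), 86, 0, 265 and 25 (week 8), 62, 1, 207 and 30 (week 12) and 133, 7, 735 and 444 (week 14), and leaving out weeks 2 and 4 gave 0 in all. With the 40 untreated arrays as 1 group without a week term they were 7, 0, 10 and 0, and with the week as a random block (estimated correlation 0.10) 0 in all, with 711 higher and 329 lower at an unadjusted p under 0.05. The cause of these differences was not tested. The 48 arrays alone gave 69, 0, 347 and 58, array weights 80, 0, 827 and 530, centring on the median 84, 0, 267 and 15, quantile normalization 43, 0, 174 and 30, scaling to 1 interquartile range 40, 0, 148 and 29, and the mean of a gene's probe sets 51, 0, 262 and 54. As covariates, the interquartile range gave 19, 1, 72 and 33, the erythroid score 33, 1, 136 and 27, and the monocyte score 0, 1, 0 and 1. Without dim probe sets they were 62, 0, 274 and 40, and with an intensity trend and robust prior 66, 0, 214 and 26. Leaving out 1 spontaneous array gave 23 to 80, 0 to 1, 54 to 216 and 6 to 57, lowest for genes higher without array 5 (23 and 54), and 22 of these 23 were among the 66. Without array 5, 32 of the 52 named genes at an adjusted p under 0.05 lost it, and 18 of the 52 kept it whichever array was left out.

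The replicate number as a block gave 69, 0, 271 and 53. Correlations of same-numbered arrays averaged -0.0083 to 0.16 between spontaneous disease and the 5 untreated weeks, each with negative values among them. Array 8, however, had the lowest value on the second principal component in spontaneous disease (-59.7) and in every untreated week (-19.4 to -57.6). What arrays of this number share between groups was not tested.

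Directions of the 52 named genes that passed the test were kept under every alternative that gave them a value except the following (removal of dim probe sets left out Csta1, Clca4c-ps, Cldn23, Gbp2b and Knl1). With untreated week 14 as the only control, changes were -0.26 for Ms4a6d, -0.0013 for Treml4, -0.21 for Cybb, -0.53 for Smpdl3b, -0.12 for Fpr2, -0.29 for Bcl6, -0.0060 for Fcer1g, 0.083 for Alox15 and 0.013 for Knl1. With the monocyte score as a covariate they were -0.15 for Ms4a6d, -0.096 for Treml4, -0.019 for Itgax, -0.39 for Smpdl3b and -0.035 for Fcer1g. S100a9 was at -0.0070 when arrays were scaled to 1 interquartile range. Low signal limits what can be read of dim genes, such as Cldn23 and Clca4c-ps in untreated mice.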
